A study of Mus musculus with 12 samples.

Results

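Immediate early genes are transcribed within minutes of a stimulus to a cell, without new protein synthesis, and many of their mRNAs are short-lived. Several encode bZIP transcription factors that pair with each other: FOS and JUN proteins form the AP-1 dimers, and ATF3 binds cAMP response elements alone or with JUN proteins. In liver they are known to be induced by partial hepatectomy, by growth factors and by isolation and handling of the tissue. The 10 genes described here are Atf3, Fos, Fosb, Jun, Junb, Egr1, Myc, Ier2, Ier3 and Btg2, in liver of mice lacking A1cf (KO) and of wild-type mice (WT). They are 10 of the 46882 gene names in the deposited count table, and 9 of the 13706 genes abundant enough to be tested. Fosb did not pass the low-count filter. The set was chosen by name with the KO against WT results of these libraries known: Atf3 was selected on its call in that comparison, and the others on their membership of the same class. The KO against WT values of the members are therefore a description and carry no test.

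The KO group was 6 libraries labelled A1cf -/- and the WT group 6 libraries labelled wild-type, all of liver of C57BL/6 mice aged 6 to 8 weeks. No treatment is named in the labels. A1CF binds RNA in hepatocytes and is known from the editing of Apob mRNA by APOBEC1; the labels give the genotype as a homozygous loss without naming an allele or the exons removed. Livers of both groups were frozen on dry ice before RNA was extracted, and the design text calls the 6 libraries of a group biological replicates. Libraries are named here by group and by the number in their title. Numbers run from 573 to 602 in 5 KO and 3 WT libraries and from 776 to 780 in 1 KO and 3 WT libraries, and the labels do not say what these ranges are.

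Total counts per library were 22129092 to 51082317 in KO and 25898171 to 40597491 in WT. A1cf lay at 8.20 to 12.6 CPM (counts scaled to the same library size by TMM) in KO livers against 47.9 to 53.8 CPM in WT livers, without overlap, so fragments of A1cf were still counted in KO. The summed level of 7 hepatocyte markers was 77920 to 97930 CPM in KO and 85360 to 107200 CPM in WT, with Alb at 56990 CPM or more in every library. Of 13706 genes, 3.82% passed an adjusted p of 0.05 between KO and WT in edgeR's quasi-likelihood test, 1.72% higher and 2.09% lower in KO, and in 3.3% the groups of 6 libraries did not overlap in CPM.

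The promoter windows below show the start region of the member that was called (Atf3), of Jun and Fos, AP-1 genes that were high together in KO 574, KO 584 and WT 573, of Junb, which was highest in KO 602, and of Btg2, the member with a complete cAMP response element. Each runs from 250 bases before the start of the gene to 50 bases after it, 5′ to 3′ on the gene's strand, from RefSeq on GRCm38.p6. Windows were matched by symbol for 7 of the 10 members, and Egr1, Ier2 and Myc had none. Capitals mark matches to the cAMP response element TGACGTCA with at most 1 mismatch, to its core TGACG, and to TATAAA. The positions are chr1:191183284-191183583 on the minus strand for Atf3, chr4:95052173-95052472 on the minus strand for Jun, chr12:85473640-85473939 on the plus strand for Fos, chr1:134079106-134079405 on the minus strand for Btg2 and chr8:84978699-84978998 on the minus strand for Junb. The start used for Atf3 lies inside the span of the gene in the deposited table.
Atf3: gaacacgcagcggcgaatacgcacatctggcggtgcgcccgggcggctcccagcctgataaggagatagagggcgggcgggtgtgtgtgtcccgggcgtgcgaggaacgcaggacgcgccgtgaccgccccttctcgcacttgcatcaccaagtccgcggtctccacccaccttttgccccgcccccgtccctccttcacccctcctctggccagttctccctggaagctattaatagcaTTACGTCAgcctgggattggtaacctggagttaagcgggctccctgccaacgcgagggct
Jun: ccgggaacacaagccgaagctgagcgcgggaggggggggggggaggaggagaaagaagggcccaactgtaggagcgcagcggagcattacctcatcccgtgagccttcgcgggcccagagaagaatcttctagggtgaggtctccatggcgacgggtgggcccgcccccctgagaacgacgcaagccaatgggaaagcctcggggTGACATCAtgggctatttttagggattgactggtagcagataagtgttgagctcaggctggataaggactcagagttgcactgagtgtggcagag
Fos: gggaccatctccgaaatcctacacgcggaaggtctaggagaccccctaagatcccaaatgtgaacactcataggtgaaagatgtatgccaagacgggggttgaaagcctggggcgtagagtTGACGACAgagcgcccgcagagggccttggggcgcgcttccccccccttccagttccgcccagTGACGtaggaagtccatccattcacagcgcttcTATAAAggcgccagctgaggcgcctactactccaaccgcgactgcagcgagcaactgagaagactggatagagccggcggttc
Btg2: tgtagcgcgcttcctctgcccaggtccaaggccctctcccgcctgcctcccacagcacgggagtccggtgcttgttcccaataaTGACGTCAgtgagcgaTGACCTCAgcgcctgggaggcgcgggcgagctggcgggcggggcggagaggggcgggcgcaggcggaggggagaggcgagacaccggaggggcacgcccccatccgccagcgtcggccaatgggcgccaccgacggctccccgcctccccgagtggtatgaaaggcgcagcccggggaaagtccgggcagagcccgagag
Junb: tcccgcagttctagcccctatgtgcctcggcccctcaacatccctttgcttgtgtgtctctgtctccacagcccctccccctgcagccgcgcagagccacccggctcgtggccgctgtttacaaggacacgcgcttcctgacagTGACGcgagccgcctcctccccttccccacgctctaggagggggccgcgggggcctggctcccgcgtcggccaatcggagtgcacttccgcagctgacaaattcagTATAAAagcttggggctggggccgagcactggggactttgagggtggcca

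Motifs were searched on both strands of each window, and positions count from the annotated start, with -1 the base before it. The complete cAMP response element TGACGTCA lay in 1 of 7 member windows, at position -166 of Btg2, against 1.9% of 27025 windows. A search that allowed 1 mismatch, added after the complete element had been searched, matched 4 of 7 windows against 12.9% of all windows. These were TTACGTCA at position -10 of Atf3, TGACATCA at -45 of Jun, TGACGACA at -129 of Fos, and the Btg2 element with TGACCTCA at -150. The core TGACG, which overlaps the complete element, lay in 5 of 7 windows (Atf3, Btg2, Fos, Fosb and Junb) against 21.0% of all windows. TATAAA lay in 2 of 7 against 14.2%, at position -33 of Fos and at the annotated start of Junb. The GC box GGGCGG lay in 6 of 7 against 35.9%, and the EGR site in 1 of 7 (Fosb, where it overlaps a GC box) against 3.5%. The AP-1 site TGANTCA (7.9% of all windows), the CArG box (1.6%) and the heat shock element (0.5%) had no match in the 7 windows. A match describes the letters in a window and does not show that a factor was bound there.

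The members are short genes apart from Atf3. In the deposited table (mm10) they span a median of 3668 bases, against 21120 bases over all tested genes. Atf3 lies at chr1:191170296-191218039 on the minus strand and spans 47744 bases. Fos lies at chr12:85473890-85477273 on the plus strand and Jun, an intronless gene, at chr4:95049034-95052222 on the minus strand. Among members, only Jun shared exonic bases with another gene, Junos on the opposite strand, which had 237 counts in all libraries together. No strand option is recorded for the counting. The 3′ untranslated regions (GENCODE M21 on GRCm38) held the AU-rich pentamer ATTTA in 9 of 10 members, with a median of 2.88 per kilobase. The median was 1.3 over the 12006 tested genes with such a region, less those with very short ones. The share of tested genes that held the pentamer was not computed. Ier3 had the highest density among members, at 8.16 per kilobase, and Ier2 had none. The nonamer TTATTTATT, an element known from unstable mRNAs, lay in 1 of 10 members, Fos, against 7.0% of tested genes. It is shown in capitals at chr12:85477103-85477131 on the plus strand.
Fos 3′ site: tgttttcaatTTATTTATTaagatggatt

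Atf3, which encodes the stress-inducible ATF/CREB family factor, had the largest log2 fold change of the 9 members tested. Its lowest, median and highest levels were 0.786, 3.78 and 6.08 CPM in KO livers, against 0.586, 0.791 and 1.99 CPM in WT livers. Of the 6 KO libraries, 5 lay above the highest WT library, and KO 602 lay inside the WT range. Means were 3.87 ± 1.84 CPM in KO and 1.12 ± 0.624 CPM in WT (SD, n = 6 each), which rest on 18 to 197 counts per KO library and 16 to 76 per WT library. The log2 fold change was 1.77 ± 0.43 (SE), with an adjusted p of 0.040 in edgeR's quasi-likelihood test, the value that chose the gene. Atf3 was called in 3 of the 12 fits that left out 1 library each, in which its log2 fold change was 1.59 to 1.99. It was called without KO 602 (1.98, adjusted p = 0.0072), without WT 573 and without WT 776, and in the other 9 the adjusted p reached 0.094 at most. The call was also lost with limma-voom (adjusted p = 0.070), without the low-count filter (0.095), without WT 573 and KO 588 together (0.083) and with libraries 573 to 602 only (0.26), so that 13 of 21 alternatives ended it. The log2 difference was 1.45 within libraries 573 to 602 and 2.42 within 776 to 780, where 1 library was KO. In whole liver, a change in the number of cells that express a gene and a change in its RNA per cell cannot be told apart.

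**Figure D1:**
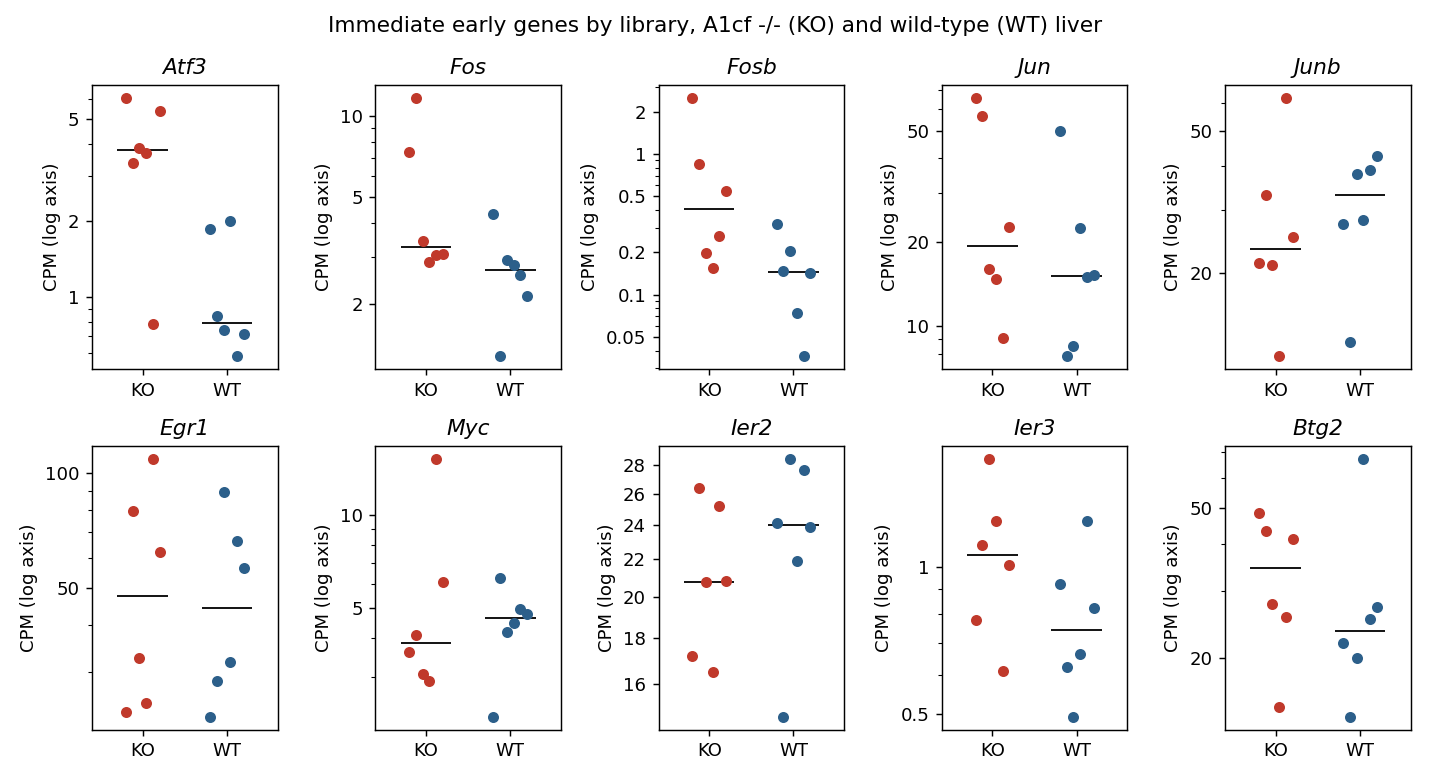
Level of each immediate early gene in each of 6 KO and 6 WT liver libraries, in TMM-scaled CPM on a log axis whose range differs between genes, with the group median as a line. For Atf3, 5 KO libraries lie above every WT library, and for the other genes the ranges overlap more widely.

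The FOS genes encode AP-1 subunits that bind DNA only as dimers with JUN proteins. Fos had 2.87, 3.25 and 11.7 CPM as its lowest, median and highest levels in KO livers, against 1.28, 2.68 and 4.32 CPM in WT livers. KO 584 (11.7 CPM) and KO 574 (7.35 CPM) lay above every WT library, and the other 4 KO libraries lay between 2.87 and 3.42 CPM, inside the WT range. The Fos log2 fold change was 0.96 ± 0.39. Fosb had 0.155, 0.404 and 2.51 CPM in KO livers, against 0.0366, 0.145 and 0.316 CPM in WT livers, and was too low to be tested. It rested on 4 to 71 counts per KO library and 1 to 13 per WT library, with KO 574, KO 584 and KO 780 above every WT library. Without KO 574 the highest KO value of Fosb was 0.856 CPM.

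Of the JUN genes, Jun and Junb differed in which libraries were high. Jun, the AP-1 subunit that can also pair with itself, had 9.08, 19.4 and 65.6 CPM in KO livers, against 7.84, 15.2 and 49.9 CPM in WT livers. It was high in KO 574 (65.6 CPM), KO 584 (56.5 CPM) and WT 573 (49.9 CPM), while the other 9 libraries lay between 7.84 and 22.6 CPM. The groups overlapped over most of their range, and the log2 fold change was 0.62 ± 0.59. Junb, which in mouse cells can oppose Jun at some promoters, had 11.7, 23.4 and 62.1 CPM in KO livers, against 12.9, 33.1 and 42.8 CPM in WT livers. KO 602 was the highest of the 12 libraries and KO 591 the lowest, and 2 of 6 KO libraries lay above the WT median. The Junb log2 fold change was -0.11 ± 0.38, and without KO 591 it was 0.05.

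Egr1, a zinc finger factor induced through serum response factor and its partners, had 23.7, 47.6 and 109 CPM in KO livers, against 23.0, 44.3 and 89.4 CPM in WT livers. Its highest libraries were KO 602 (109 CPM), WT 601 (89.4 CPM) and KO 584 (79.7 CPM), and KO 574 and WT 573 were the lowest of their groups. The Egr1 log2 fold change was 0.17 ± 0.46, and -0.14 without KO 602. Myc, a bHLH-zipper factor of growth and ribosome synthesis, had 2.91, 3.86 and 15.2 CPM in KO livers, against 2.23, 4.64 and 6.27 CPM in WT livers. Only KO 602 lay above the WT range, and the next KO library was KO 780 at 6.10 CPM. The Myc log2 fold change was 0.37 ± 0.41, and -0.18 without KO 602.

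The remaining members are regulators of growth and survival that are not bZIP factors. Ier2, a short nuclear protein, was the steadiest member, with 16.5, 20.8 and 26.4 CPM in KO livers, against 14.7, 24.0 and 28.4 CPM in WT livers and no KO library above the WT range. Ier3, a regulator of cell survival, had 0.611, 1.06 and 1.67 CPM in KO livers, against 0.493, 0.742 and 1.25 CPM in WT livers, and 5 of 6 KO libraries lay above the WT median. Btg2, an antiproliferative partner of the CCR4-NOT deadenylase and a p53 target, had 14.9, 34.5 and 48.3 CPM in KO livers, against 14, 23.7 and 67.4 CPM in WT livers. The highest Btg2 value was in WT 776, and 5 of 6 KO libraries lay above the WT median. The log2 fold changes were -0.15 ± 0.16 for Ier2, 0.44 ± 0.27 for Ier3 and 0.19 ± 0.38 for Btg2.

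Over the 9 members tested, 1 passed the adjusted p of 0.05 (Atf3, higher in KO), and it was in the set because of that call. Among all tested genes, 3.82% passed and 1.72% were higher in KO, and the members' count cannot be weighed against these shares. Of the 9, 7 had a log2 fold change above 0, with a median of 0.37. Atf3 is among the 7, and so are Egr1 and Myc, which were -0.14 and -0.18 without KO 602. Over all 13706 tested genes 51.8% were above 0 and the median was 0.01. For none of the 10 members were the 2 groups without overlap, against 3.3% of tested genes. Within libraries 573 to 602 and within 776 to 780, the log2 differences were 0.91 and 0.30 for Fos, 0.68 and 0.39 for Jun, 0.59 and 0.18 for Ier3, and 0.68 and 0.20 for Btg2. They were 0.19 and 0.33 for Egr1, 0.23 and 0.36 for Myc, and -0.05 and -0.23 for Ier2, and for Junb they differed in sign (0.10 and -0.51). Ranked per exonic length (TPM), the KO means ran from Junb (33.7 TPM), Ier2 (30.3 TPM), Btg2 (27.2 TPM), Egr1 (26.5 TPM) and Jun (21.9 TPM) down to Fos (5.0 TPM), Myc (4.42 TPM), Atf3 (4.04 TPM), Ier3 (2.09 TPM) and Fosb (0.457 TPM). In WT livers Junb (36.7 TPM) and Ier2 (33.0 TPM) were again the highest, and Atf3 (1.13 TPM) came below Ier3 (1.52 TPM). Within KO, the 5 higher genes had SDs of 5.46 to 17.8 TPM and were not separated from their neighbours in this order by their spread, nor were Fos, Myc and Atf3, with SDs of 2.03 to 3.64 TPM.

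**Figure D2:**
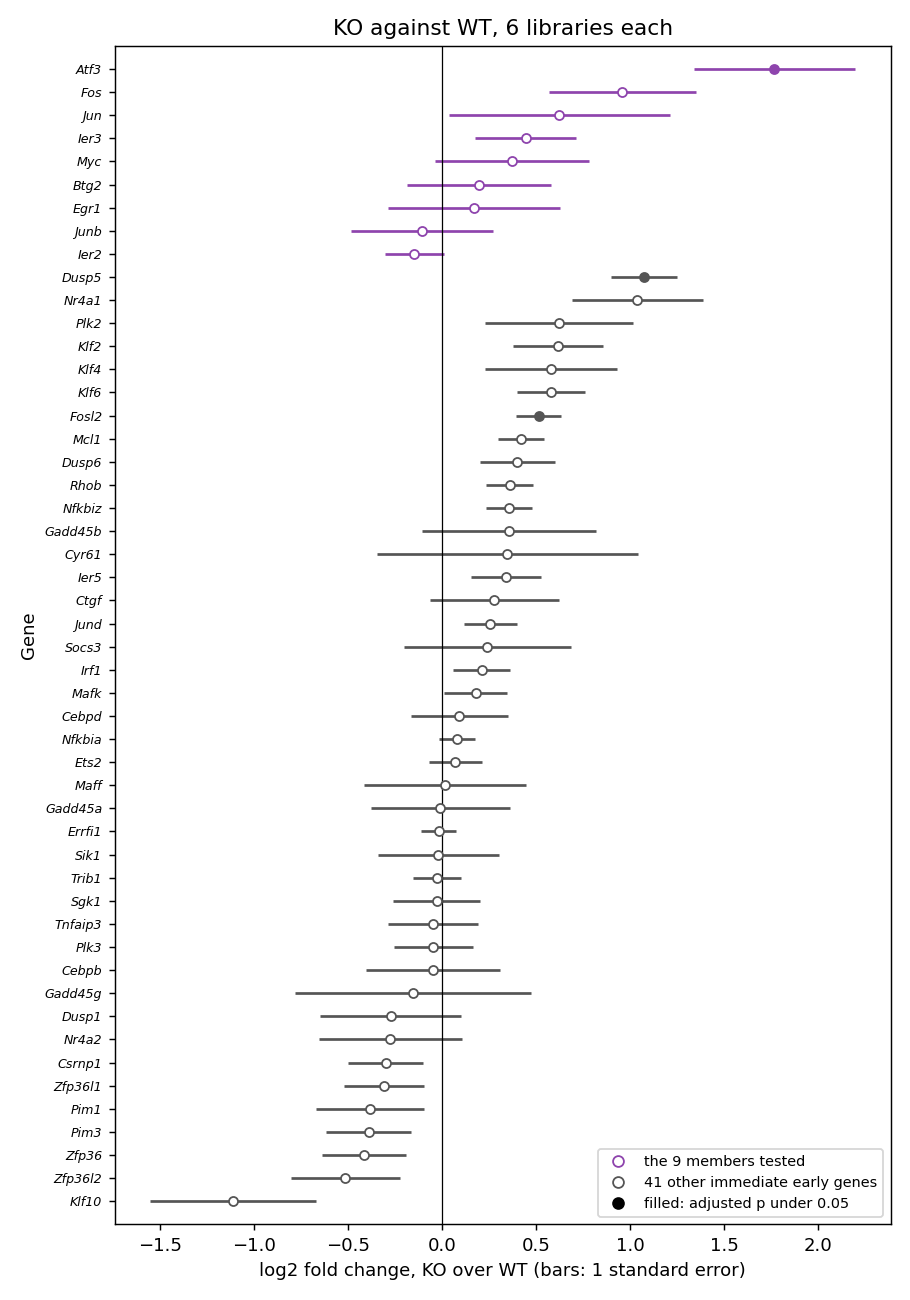
Log2 fold change of KO over WT with its standard error for the 9 members tested (purple, upper block) and 41 other immediate early genes tested (grey), each block sorted by value and filled where the adjusted p was under 0.05. Atf3, at 1.77, is the filled member, and Dusp5 and Fosl2 are the filled points among the other genes.

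The members varied widely between libraries of the same genotype. The biological coefficient of variation within groups, edgeR's estimate of the relative spread beyond counting noise, had a median of 0.457 over the 9 members against 0.171 over all tested genes. For 7 of the 9 it lay above the 95th percentile of the 13706 tested genes, which by construction 686 genes do. Jun had the widest spread, 0.679, and Egr1 followed with 0.538. Ier2, at 0.198 and the 62.0th percentile, and Ier3, at 0.286 and the 84.0th percentile, were the exceptions. Among the 500 tested genes nearest in mean level, Egr1 stood at the 99.6th percentile, Jun at the 98.6th and Atf3 at the 96.0th, while Ier2 stood at the 87.6th and Ier3 at the 61.5th. Across all 12 libraries the highest value was 10.4 times the lowest for Atf3, 8.37 times for Jun and 1.93 times for Ier2.

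**Figure D3:**
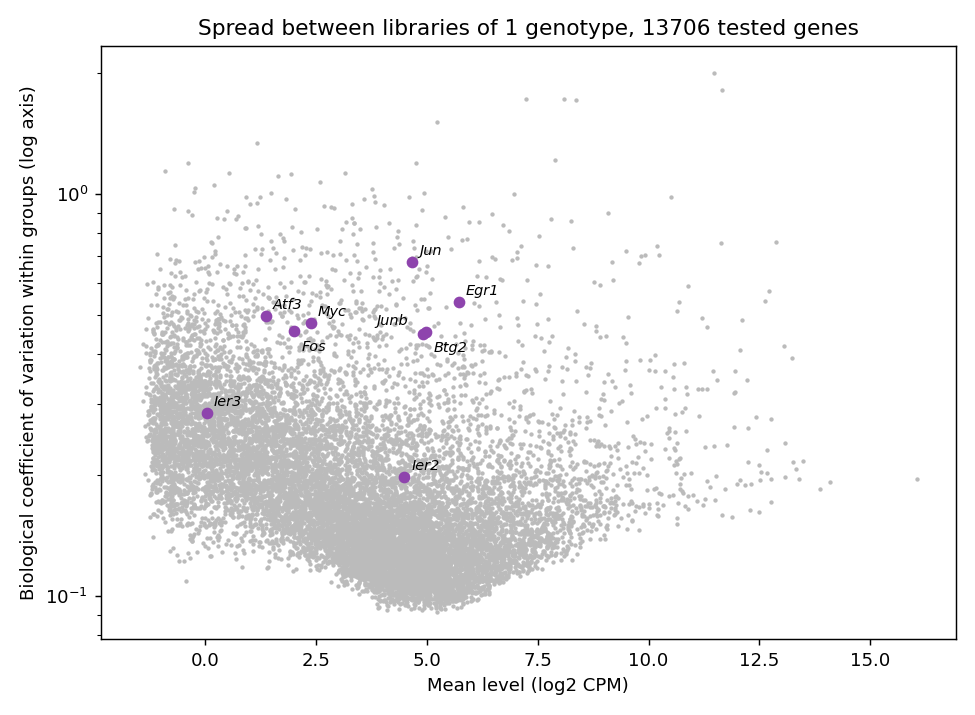
Biological coefficient of variation within groups (log axis) against mean log2 CPM for each of the 13706 tested genes (grey) and the 9 members tested (purple). All members apart from Ier2 and Ier3 lie above the 95th percentile of all tested genes.

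The members did not rise and fall together as 1 block. Group means were taken from log2 CPM and the remaining deviations compared over the 12 libraries, which share depth and scaling between genes, so that these correlations are a description. Of the 45 pairs of members, 28 had a Pearson r above 0, with a median of 0.09, and 8 had an r of 0.6 or more. Of those 8, 4 joined Jun with Fos (r = 0.83, Spearman's rho = 0.77), with Atf3 (0.68, rho = 0.64) and with Fosb (0.68, rho = 0.58), and Fos with Fosb (0.63, rho = 0.66). The other 4 joined Junb with Ier2 (0.86, rho = 0.80), Junb with Egr1 (0.80, rho = 0.79), Egr1 with Ier2 (0.77, rho = 0.77) and Egr1 with Myc (0.65, rho = 0.58). No pair of 0.6 or more joined a gene of the first 4 pairs with a gene of the other 4. Some of these pairs fell below 0.6 when the 2 libraries farthest from the median of 1 gene were left out. That gene is the first named of each pair below, and libraries extreme only in the second gene were kept. Fosb with Jun was 0.55 without KO 574 and KO 591, and Fos with Fosb 0.59 without KO 584 and WT 573. Without KO 602 and WT 601, Egr1 with Myc was 0.54 and Egr1 with Ier2 0.69. Atf3 with Jun was 0.60 without KO 602 and WT 776, and Junb with Ier2 0.82 without KO 602 and WT 590. Within KO and within WT, r was 0.89 and 0.26 for Fosb with Jun, 0.74 and 0.32 for Fos with Fosb, and 0.81 and 0.34 for Egr1 with Myc. The other pairs of 0.6 or more had an r of at least 0.65 in each group. Fosb did not pass the low-count filter and had 1 to 13 counts per WT library. The share of all gene pairs at 0.6 or more was not computed.

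Jun with Fos rested partly on 3 libraries. WT 573, KO 574 and KO 584 were high in both genes. Without the 2 libraries farthest from the median of Fos, KO 584 and WT 573, r was 0.75, with KO 574 still included. An r without all 3 was not computed. Within the 6 KO libraries, which include KO 574 and KO 584, r was 0.88. Within the 6 WT libraries, which include WT 573, it was 0.77. For Junb with Egr1, r was 0.77 without KO 602 and WT 590. Atf3 ran against Egr1 (r = -0.70, rho = -0.67) and against Myc (r = -0.74, rho = -0.55), the 2 pairs at -0.6 or below. Without KO 602 and WT 776 these were -0.60 and -0.53. KO 602 was the lowest KO library in Atf3, Jun and Ier3 and the highest of the 12 in Junb, Egr1 and Myc. KO 584 was among the 3 highest of 12 libraries in 6 members and KO 574 in 5, and WT 590 was the lowest of 12 in 4.

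**Figure D4:**
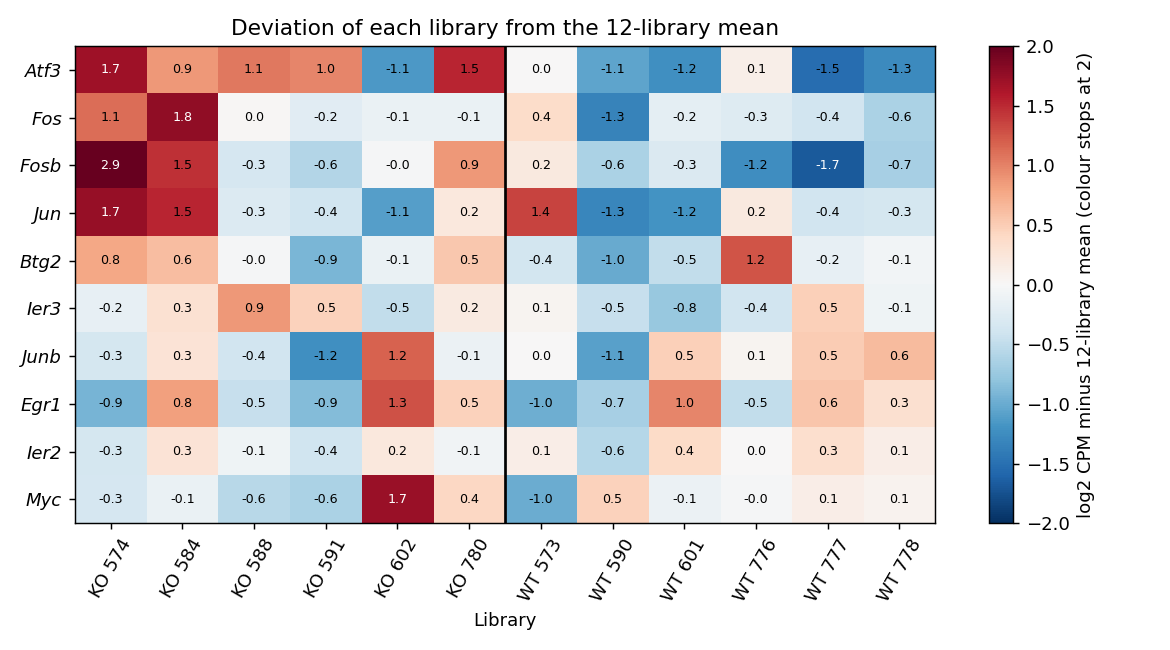
Log2 CPM of each member (rows) minus its mean over the 12 libraries, for 6 KO libraries left of the line and 6 WT libraries right of it. KO 574 and KO 584 are high in the Fos, Fosb and Jun rows, and KO 602 is low in Atf3 and Jun and high in Junb, Egr1 and Myc.

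**Figure D5:**
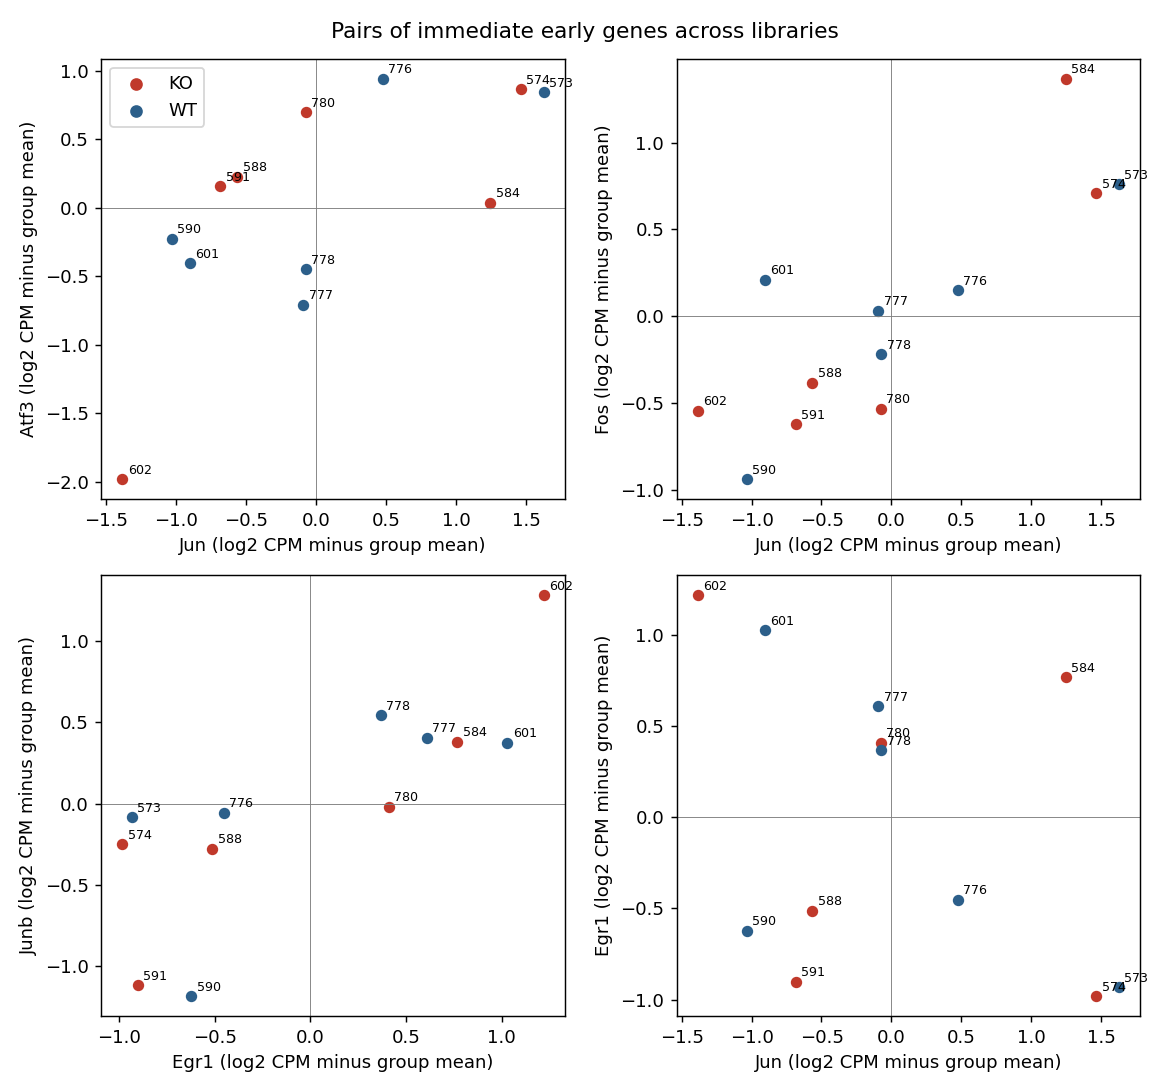
Deviation of log2 CPM from the group mean for pairs of members, with each point a library labelled by its number (red KO, blue WT). Jun rises with Atf3 (r = 0.68) and Fos (r = 0.83) and Egr1 with Junb (r = 0.80), while Jun and Egr1 (r = -0.38) do not rise together.

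Acute phase and cell type marker levels differed between the same libraries. Saa1, a serum amyloid A gene of the hepatic acute phase response, lay at 17490 CPM in KO 602, 3653 CPM in KO 588 and 1840 CPM in KO 591, and did not pass 83.8 CPM in KO 574, KO 584 and KO 780, against 8337 CPM in WT 590, 6920 CPM in WT 601 and at most 65.0 CPM in each remaining WT library. The 3 libraries high in Jun and Fos were thus among those low in Saa1, and KO 602 was the highest in Saa1. KO 602 also had the highest summed levels of 11 Kupffer cell and macrophage markers (491 CPM), with 9 of the 11 at their highest there, and of 7 neutrophil and monocyte markers (23.6 CPM), with 4 of the 7 at their highest there. Spp1, a secreted phosphoprotein of cholangiocytes and other cells, lay at 505 CPM in KO 602. The part of these levels in the members' values was not tested.

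Between groups, 51.8% of all 13706 tested genes had a log2 fold change above 0 and 3.82% passed edgeR's test. In that test 2903 of the 13706 had an unadjusted p under 0.05, and DESeq2 called 1175 and limma-voom 562. All 11 Kupffer cell and macrophage markers had a log2 fold change above 0 and none passed edgeR's test, although 10 had an unadjusted p under 0.05, DESeq2 called 3 and limma-voom 0. Their summed level was 138 to 491 CPM in KO and 134 to 222 CPM in WT. All 10 markers of sinusoidal endothelium were above 0 and Stab2 rose, with sums of 233 to 282 CPM in KO and 146 to 289 CPM in WT. All 10 markers of stellate cells and fibroblasts were above 0, and Pdgfrb and Lrat rose, with sums of 271 to 367 CPM in KO and 159 to 286 CPM in WT. Neutrophil and monocyte markers summed to 4.16 to 23.6 CPM in KO and 2.82 to 7.62 CPM in WT. T and NK cell markers summed to 6.64 to 9.04 CPM in KO and 3.88 to 10.3 CPM in WT, and B cell markers to 4.67 to 12.5 CPM in KO and 4.40 to 7.48 CPM in WT. Those tested (4, 2 and 4 genes) were all above 0 and none passed edgeR's test. In each of the first 2 lists, 1 had an unadjusted p under 0.05 and DESeq2 called 1. In the T and NK cell list the gene with that p was Ptprc, which made up most of the sum. Ptprc lay at 5.05 to 7.86 CPM in KO and 2.77 to 6.40 CPM in WT. Without it the T and NK cell sum was 1.18 to 2.48 CPM in KO and 0.476 to 3.86 CPM in WT. Of 7 hepatocyte markers 1 was above 0 and none passed edgeR's test, with 2 at an unadjusted p under 0.05. Of 5 cholangiocyte markers tested, 1 (Spp1) was above 0 and none passed the test by edgeR, DESeq2 or limma-voom or had an unadjusted p under 0.05. Their sum was mostly Spp1, at 21.1 to 505 CPM in KO and 24.0 to 113 CPM in WT, and without it was 5.98 to 9.73 CPM in KO and 7.51 to 10.9 CPM in WT. Red cell genes summed to 135 to 234 CPM in KO and 144 to 268 CPM in WT. Ly6g and Ncr1 lay below 0.15 CPM in every library. Atf3 is known to be inducible in macrophages as well as in hepatocytes, and the part of these cell types in its level was not tested.

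Outside the members, 48 other immediate early genes were listed and 41 were tested, of which 2 rose, 0 fell and 23 had a log2 fold change above 0, with a median of 0.08. Among all 13706 tested genes 3.82% passed, 51.8% were above 0 and the median was 0.01, so the counts of this list lay near those shares. Dusp5, a nuclear phosphatase that inactivates ERK, rose, with 2.36 to 3.30 CPM in KO livers and 0.823 to 1.58 CPM in WT livers. The groups did not overlap, and its log2 fold change was 1.07 ± 0.17 (adjusted p = 0.0044). Fosl2, which encodes the FOS family subunit FRA-2, rose, with 11.7 to 17.2 CPM in KO livers and 8.51 to 12.3 CPM in WT livers, which overlap. Its log2 fold change was 0.51 ± 0.12 (adjusted p = 0.033), and it was called in 4 of the 12 fits that left out 1 library, while Dusp5 was called in all 12.

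Of the 41, 7 had an r of 0.6 or more with Jun: Cyr61 (0.94), a matricellular gene, Plk2 (0.86), Zfp36l1 (0.86), Nr4a2 (0.84), Trib1 (0.78), Mafk (0.77) and Nr4a1 (0.75). Over all tested genes that are not members the share was 11.4%. With Egr1, 4 of the 41 did, Pim1 (0.80), Zfp36 (0.70), Zfp36l2 (0.65) and Socs3 (0.61), against 1.8% of tested genes. With Atf3, 5 did, against 6.0%: Jund (0.84), Plk2 (0.82), Nr4a1 (0.81), Nr4a2 (0.80) and Cyr61 (0.66). No gene of the 41 reached 0.6 with both Jun and Egr1. With shares of 11.4% and 1.8%, hardly any of 41 would be expected to, so this count carries no weight. The share of all tested genes that reached 0.6 with both was not computed. Cyr61 lay at 23.3 CPM in KO 574 and 26.3 CPM in KO 584, against 25.7 CPM in WT 573, and no other library passed 6.70 CPM.

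The genes most like Atf3 in their deviations over the 12 libraries, among 11945 tested genes with a mean of at least 1 CPM, were Zeb1 (r = 0.92), Amy1 (0.91), Hnrnpc (0.90), Reck (0.90) and Usp54 (0.89). Without the 2 libraries farthest from the median of Atf3 these were 0.70 to 0.87. For Fos they were Myd88 (0.94), Blmh (0.93), Dph7 (0.92), Parp9 (0.92) and Eml2 (0.90), and 0.78 to 0.90 without its 2 farthest libraries. The members were left out of the candidates, and none of the other immediate early genes listed was among either 5. With 5 genes picked from 11945 and 41 of that list tested, such an absence was to be expected and carries no weight. Each 5 were picked for the highest r, so these values are a description.

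Upstream of these genes, kinases and transcription factors carry the signal from receptors to their promoters. Among all 13706 tested genes 3.82% passed, 1.72% higher and 2.09% lower in KO, with a median of 0.01. In a list of 18 to 27 tested genes, 1 call is near that share and is no result about the list. Of 27 signalling and SRF factors tested, 0 rose and 1 fell, with a median log2 fold change of -0.03. The gene that fell was Mapk8, which encodes the JUN kinase JNK1, with 14.2 to 16.6 CPM in KO livers and 19.9 to 24.7 CPM in WT livers, a log2 fold change of -0.51 ± 0.07 (adjusted p = 0.0020). Of 19 growth factor ligands and receptors tested, 1 rose and 1 fell, with a median of 0.13. Tgfa, a ligand of the EGF receptor, fell, with 10.1 to 15.7 CPM in KO livers and 17.3 to 23.3 CPM in WT livers and a log2 fold change of -0.68 ± 0.12 (adjusted p = 0.0085). Fgfr3, a receptor of fibroblast growth factors, rose by 0.41 ± 0.11 on the log2 scale (adjusted p = 0.049), a call that held in 1 of 12 fits without a library.

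Among partners, 26 other bZIP factors were tested, of which 1 rose and 0 fell, with a median of 0.05. Maf, a large MAF factor, rose, with 23.4 to 30.8 CPM in KO livers and 16.7 to 25.0 CPM in WT livers, a log2 fold change of 0.56 ± 0.10 (adjusted p = 0.010). Of 22 MYC partners and targets, 0 rose and 1 fell, with a median of -0.05. Mlx, which pairs with MXD and MONDO factors, had 19.2 to 22.9 CPM in KO livers and 24.7 to 29.7 CPM in WT livers and fell by 0.39 on the log2 scale (SE 0.07, adjusted p = 0.0082). Of 22 p53 targets and BTG partners, none passed edgeR's test and the median was 0.04, with 1 at an unadjusted p under 0.05, 1 called by DESeq2 and 0 by limma-voom. Among all 13706 tested genes, 2903 had an unadjusted p under 0.05 in edgeR's test. Bbc3 (-0.59 ± 0.20, adjusted p = 0.11) and Eda2r (0.61 ± 0.33, adjusted p = 0.31) had the smallest p in that list.

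Atf3 is also known as a target of ATF4 in the integrated stress response. Of 23 other genes of that response tested, 0 rose and 1 fell, 5 had a log2 fold change above 0 and the median was -0.10. Among all tested genes 51.8% were above 0 and the median was 0.01. Asns, asparagine synthetase, fell, with 0.212 to 1.41 CPM in KO livers and 2.02 to 18.9 CPM in WT livers, a log2 fold change of -4.03 ± 0.67 (adjusted p = 0.0080). Asns was lower and Atf3 higher in KO livers, and the part of ATF4 in either was not tested.

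Of 18 heat shock genes, 1 rose and 0 fell, with a median of -0.14. Hspa1a rose, with 0.556 to 7.37 CPM in KO livers and 0.121 to 0.330 CPM in WT livers, a log2 fold change of 3.24 ± 0.72 (adjusted p = 0.028), and 2.16 without KO 591. The call held in 8 of 12 fits without a library and was lost without WT 573, WT 776, WT 777 or WT 778. Hspa1a is nearly identical to Hspa1b (14.1 to 106.5 CPM in KO livers and 4.64 to 21.9 CPM in WT livers), and how reads were divided between the pair is uncertain. Of 21 hypoxia genes, 1 rose and 0 fell, with a median of 0.22. Vegfa, the endothelial growth factor, rose by 0.34 ± 0.09 on the log2 scale (adjusted p = 0.0498), a call that held in 1 of 12 fits without a library. Of 27 acute phase genes, none passed edgeR's test, DESeq2 and limma-voom called 0, and 1 had an unadjusted p under 0.05. Of these genes 22 were above 0, with a median of 0.31. Among all 13706 tested genes, 2903 had an unadjusted p under 0.05 in edgeR's test, 51.8% were above 0 and the median was 0.01. Lbp had a log2 fold change of -0.30 ± 0.10 (adjusted p = 0.12) and Steap4 one of 0.56 ± 0.34 (adjusted p = 0.37).

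The 10 list genes that passed the test had the same sign within both ranges of library numbers. They were called over these same 12 libraries, so agreement in sign was largely set in advance and is no separate check. The range 776 to 780 held 1 KO library. Within 573 to 602 and within 776 to 780 the log2 differences were 0.95 and 1.07 for Dusp5, 0.43 and 0.83 for Fosl2, -0.41 and -0.66 for Mapk8, and -0.53 and -0.86 for Tgfa. They were 0.41 and 0.42 for Fgfr3, 0.66 and 0.45 for Maf, -0.32 and -0.47 for Mlx, and -3.51 and -4.54 for Asns. For Hspa1a they were 2.06 and 2.78, and for Vegfa 0.32 and 0.46.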

How the data were processed

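Per the file headers, the authors deposited raw fragment counts of 12 libraries, obtained from featureCounts 1.5.0-p2 over exons of GENCODE M8 with no strand option. STAR, DESeq2 and mm10 are named in the submitters' processing notes. The other deposited value, the authors' exonic length per gene, was used for TPM only. Libraries were grouped by the genotype in their labels. The fits used edgeR 4.0.16 in R 4.3.3: genes were kept by filterByExpr (minimum count 10), scaled by TMM and tested by glmQLFit (robust) and glmQLFTest on genotype alone. Adjusted p-values (Benjamini and Hochberg, 13706 genes) had a threshold of 0.05, and "rose" and "fell" are used only past it. Log2 CPM used a prior count of 2. Depth sets a floor of 3 counts, or 0.059 to 0.131 CPM per library, for counting error only. Steps were checked on simulated counts.

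The members and gene lists were chosen with earlier results of these data known. All members are named, and from each list every gene past the threshold up to 6, or where none passed the 2 with the smallest p. The 5 genes most like Atf3 and Fos were taken by r, passing over unnamed gene models. Cyr61, Saa1, Spp1, Hspa1b, the markers with a call and the genes with an r of 0.6 or more were named after their values were seen. Sequences are from RefSeq (GRCm38.p6) and, for 3′ untranslated regions, GENCODE M21. Alternatives were RLE size factors, library totals, no filter on low counts, a floor of 1 CPM in the mean, limma-voom (limma 3.58.1), DESeq2 1.42.0, the library number range as a covariate, libraries 573 to 602 only, the fits without 1 library each, and the fit without the deepest library of each group.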

Additional observations from a re-analysis of the deposited data

Results flagged for a closer look

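Within the 6 libraries of a group, 1 library stood far from the other 5 in 7 of the 50 groups checked (25 genes in KO and in WT). The rule used flags about 1 group in 20 for independent, normally distributed values. Here CPM was used without a log, and the genes share libraries and include genes named for their call or small p. The 7 flags, each on the highest library of its group, are therefore a description and cannot be compared with that rate. Fosb reached 2.51 CPM in KO 574, against 0.856 CPM in the next KO library. Jun reached 49.9 CPM in WT 573, against 22.5 CPM in the next WT library. Myc reached 15.2 CPM in KO 602, against 6.10 CPM in the next KO library, and Steap4, an acute phase gene, reached 245 CPM in the same library. Btg2 reached 67.4 CPM in WT 776, against 27.2 CPM in the next WT library. Maf reached 25.0 CPM in WT 778, which lay inside the KO range of 23.4 to 30.8 CPM, and the other 5 WT libraries reached 18.3 CPM at most. Hspa1a reached 7.37 CPM in KO 591, against 1.56 CPM in the next KO library.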

How the results depend on the processing

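No paired analysis was possible because the groups share no library number. Over all genes 523 passed the threshold (236 higher and 287 lower in KO), against 1175 with DESeq2's Wald test, 57 with libraries 573 to 602 only, 206 without WT 573 and KO 588 together, and 266 to 638 without 1 library each. Library totals gave 405, of which 266 were higher and 139 lower in KO. Of the members, 1 (Atf3) passed, against 0 without the low-count filter, with limma-voom, with libraries 573 to 602 only and without WT 573 and KO 588, and 0 to 1 without 1 library each. In those settings the Atf3 log2 fold change was 1.76 (adjusted p = 0.095), 1.71 (0.070), 1.61 (0.26) and 1.99 (0.083), and 1.59 to 1.99 without 1 library each. Of the list genes 10 passed, against 24 with DESeq2, 1 with libraries 573 to 602 only, 6 without WT 573 and KO 588, and 6 to 14 without 1 library each. The direction turned for Junb with libraries 573 to 602 only (0.19) and without KO 591, and for Egr1 and Myc without KO 602. Without 1 library each, the values ran from -0.48 to 0.053 for Junb, from -0.14 to 0.42 for Egr1 and from -0.18 to 0.51 for Myc. Mapk8, Tgfa, Asns, Mlx and Dusp5 kept their call in 20 of 21 alternatives each and lost it with libraries 573 to 602 only, and Maf in 20 of 21, all but the fit without WT 573 and KO 588. Libraries 573 to 602 are fewer samples, and the cause of the other changes was not tested. Fosb could be fitted only without the low-count filter (2.18, adjusted p = 0.21). Atf3 at 16 to 197 counts and Fosb at 1 to 71 counts per library are the members that depth limits most, with Ier3.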

Other observations

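Negative correlations of the other immediate early genes with Jun, Egr1 and Atf3 across the 12 libraries were looked up after the data were seen, and the genes share the libraries' depth and scaling. With Jun, 3 of the 41 genes tested had an r of -0.6 or below, Cebpb (-0.90), Tnfaip3 (-0.86) and Cebpd (-0.65), a smaller share than the 10.3% of tested genes. Cebpb and Cebpd encode C/EBP factors of the acute phase response, and Tnfaip3 encodes the NF-kB inhibitor A20. With Egr1, 4 of 41 did, Nr4a1 (-0.80), Jund (-0.71), Nr4a2 (-0.61) and Plk2 (-0.61), against 2.2% of tested genes. With Atf3, 2 of 41 did, Socs3 (-0.68) and Tnfaip3 (-0.65), near the 5.2% of tested genes.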
